A study of Mus musculus with 4 samples.

Results

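The glutathione S-transferase (GST) genes described here are those of the pi (Gstp1, Gstp2), theta (Gstt1, Gstt2, Gstt3), omega (Gsto1, Gsto2), zeta (Gstz1) and kappa (Gstk1) classes and the microsomal gene Mgst1. They were chosen by class, as a fixed list of 10 of the 21887 protein-coding genes on placed mouse chromosomes. For each gene every listed peak whose midpoint lay inside it or within 50 kb of its nearer end was taken, which gave 37 of the 68763 listed peaks. The peaks mark where tagged MafG was found by chromatin immunoprecipitation and sequencing (ChIP-seq) in livers of C57BL6/J mice. In 2 libraries the livers had received a construct for MafG fused to the BLRP tag (labelled Ad BLRP MAFG), and in 2 the BLRP control (labelled Ad BLRP Control). All 4 were precipitated with an antibody against the Avi tag. The age and sex of the mice are not given in the labels used here. The tagged MafG came from an introduced construct, so no value shows the occupancy of the native protein.

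Glutathione S-transferases join glutathione to electrophilic drugs, carcinogens and lipid oxidation products. The pi, theta, omega and zeta enzymes are soluble. The kappa enzyme is found in mitochondria and peroxisomes, and Mgst1 is an unrelated membrane protein with the same activity. Many genes of this kind are induced through antioxidant response elements (AREs), at which the bZIP factor NRF2 pairs with a small MAF protein such as MafG. Small MAF proteins have no activation domain, and their dimers with BACH1 or with themselves are known as repressors at related MAF recognition elements (MAREs).

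Each peak is 200 bp wide, and its height is given as the normalized tag count, the BLRP-MafG tags in the peak per 10000000 tags in the collection. The list rests on 1 collection of 20406492 BLRP-MafG tags and 1 collection of about 1.72e+07 control tags, with no value per library. Intervals are therefore exact 95% intervals that cover counting error only, and no difference could be tested across animals. Over all 68763 peaks the median height was 12.3, with quartiles of 7.84 and 23.5. To be listed at all, a peak needed at least 10 times the control level and 4 times that of its surrounding 10 kb.

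All 10 genes had at least 1 listed peak within 50 kb, but so did 93.5% of all protein-coding genes. Within 10 kb the count was again 10 of 10, against 74.5% of protein-coding genes. Within 1 kb it was 7 of 10, against 56.8%, the exceptions being Gstt3, Gsto1 and Gstk1. A peak midpoint lay inside the gene for 5 of 10 (Gstt1, Gstt2, Gsto2, Gstz1 and Mgst1), against 50.5%. Several of these genes lie side by side, so the counts are not independent: 26 of the 37 peaks lay within 50 kb of more than 1 of the 10 genes. The median number of peaks within 50 kb was 8 for the 10 genes and 5 for all protein-coding genes. The median of the highest peak within 50 kb was 51 for the 10 genes and 33.8 for all protein-coding genes, where genes without a peak count as 0, or 36.8 over the genes that had one.

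Many of the tallest peaks in these windows belonged, by distance, to other genes. For 19 of the 37 peaks one of the 10 genes was the nearest protein-coding gene, and for 18 another gene was. The 19 peaks had a median height of 12.7 (quartiles 8.82 and 23.8), and the 18 others 12 (quartiles 8.45 and 26.2). Both medians stood close to the 12.3 of the whole list. Gsto1 and Gstt3 had no listed peak to which they were the nearest gene.

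**Figure D1:**
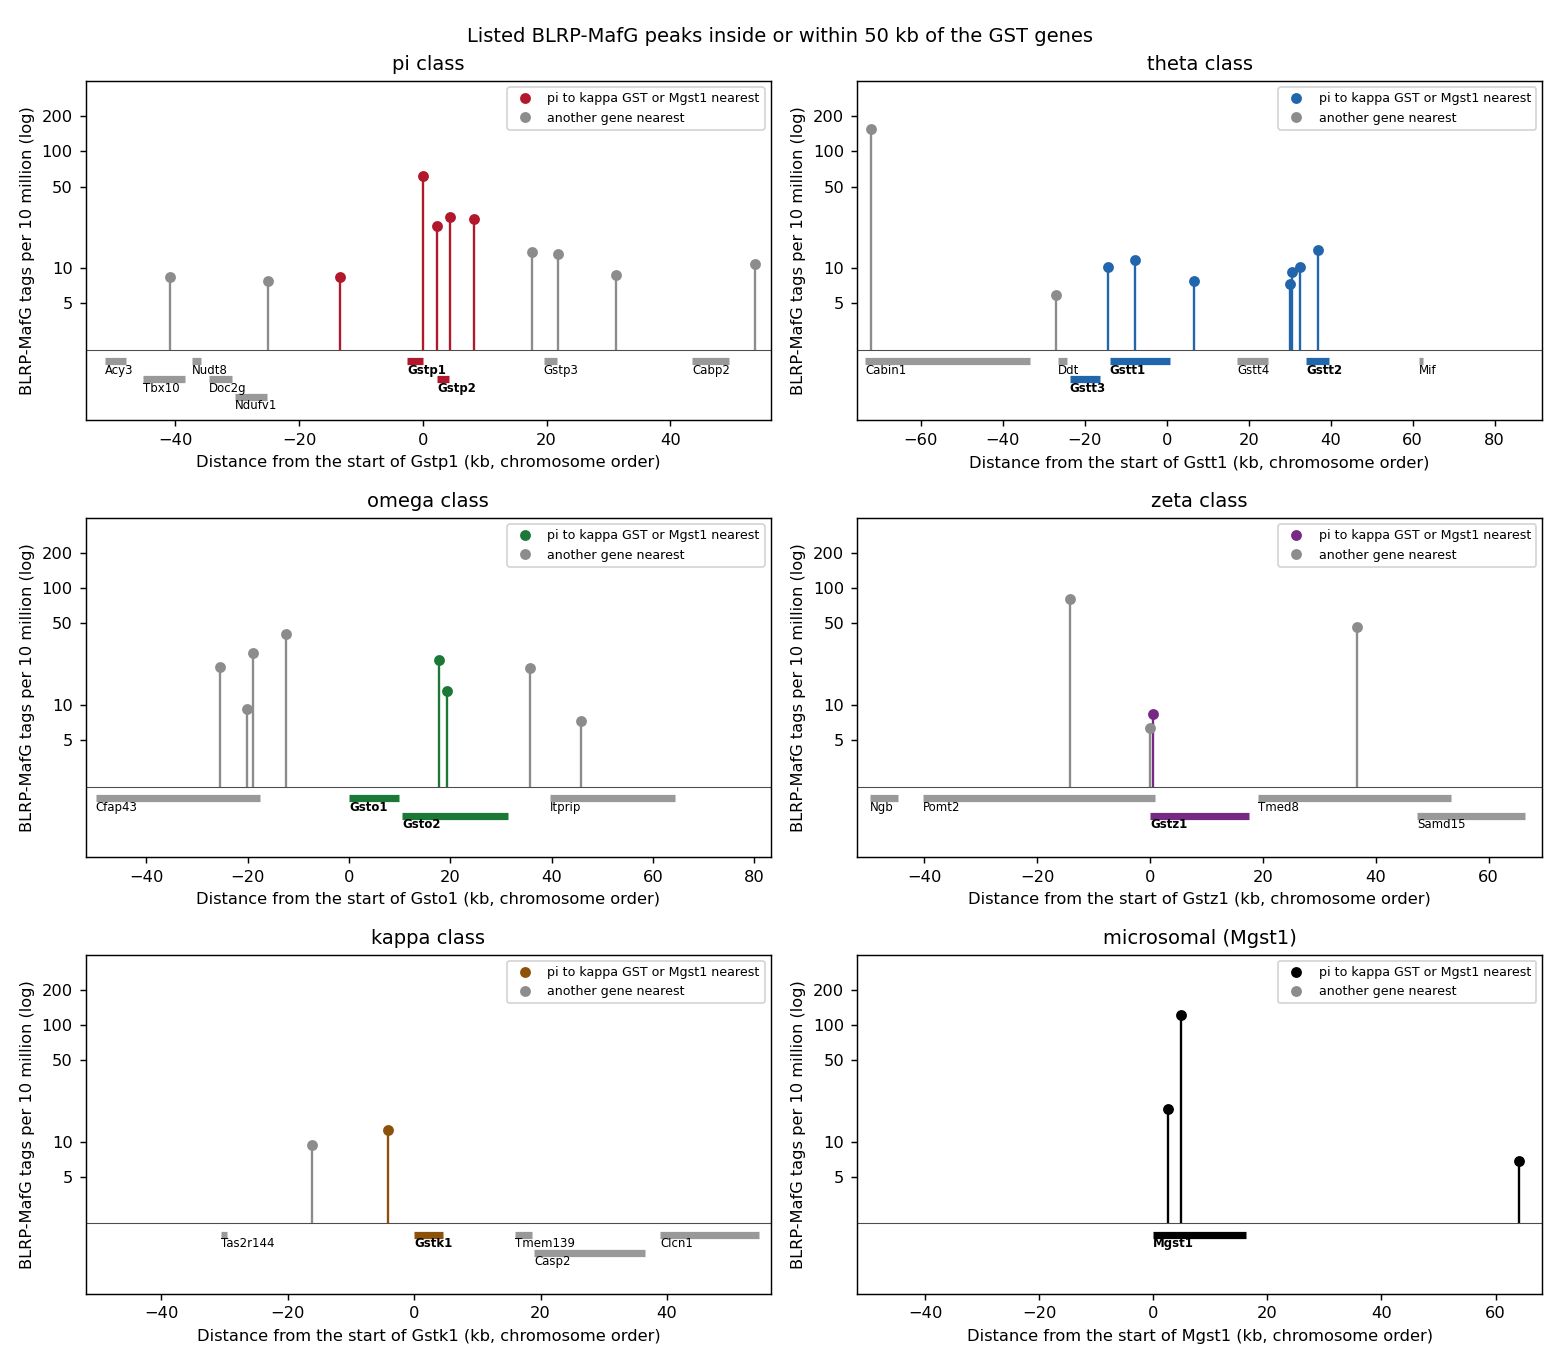
Listed peaks inside or within 50 kb of the genes of each class, by position along the chromosome (x axis, kb from the start of the named gene) and height (y axis, BLRP-MafG tags per 10000000, log scale). Bars under each map are protein-coding genes, with the described genes in colour and bold. Coloured stems are peaks nearest to a described gene and grey stems peaks nearest to another gene. The tallest coloured stems are those of Mgst1 at 121 and Gstp1 at 61.3, and the tallest grey stem, at 157, lies in Cabin1.

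The pi genes carried peaks over both of their promoters. Gstp1 and Gstp2 encode the pi-class enzymes of mouse liver and lie 2375 bp apart on chromosome 19, both on the minus strand. Gstp1 (chromosome 19:4035411-4037912) had a peak at 19:4037893-4038093 with its midpoint 81 bp upstream of the transcription start. Gstp2 (19:4040288-4042221) had one at 19:4042199-4042399, with its midpoint 78 bp upstream of its start. The placement was thus nearly the same in both genes. At the Gstp1 promoter there were 125 BLRP-MafG tags and 8 control tags, a height of 61.3 (51 to 73) and a ratio to control of 13.2 (6.49 to 31.2). At the Gstp2 promoter there were 56 BLRP-MafG tags and 1 control tag, a height of 27.4 (20.7 to 35.6) and a ratio of 47.2 (8.14 to 1899). The height intervals did not overlap, with Gstp1 higher, whereas the ratio intervals did.

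Both pi promoters hold the same motif matches under the peak, 10 bases within a longer identical stretch of 34. The sequences below are the 250 bases upstream of each start, from RefSeq on GRCm38.p6, the assembly of mm10. They are shown because the peaks at these genes cover them and because their identical bases can be read off directly. The capitals mark matches to the motifs searched, TGCTGAC (one arm of a MARE, here on the opposite strand as GTCAGCA) and TGANTCA (an AP-1-like core, here TGAGTCA), which overlap within these 10 bases. Gstp1 is chr19:4037913-4038162 and Gstp2 chr19:4042222-4042471, both read on the minus strand from 5′ to 3′.
Gstp1: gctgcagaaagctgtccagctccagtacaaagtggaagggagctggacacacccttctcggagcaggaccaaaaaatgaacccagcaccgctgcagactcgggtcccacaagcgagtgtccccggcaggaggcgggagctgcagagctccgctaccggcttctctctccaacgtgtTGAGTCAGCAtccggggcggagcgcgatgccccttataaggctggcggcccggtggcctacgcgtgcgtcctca
Gstp2: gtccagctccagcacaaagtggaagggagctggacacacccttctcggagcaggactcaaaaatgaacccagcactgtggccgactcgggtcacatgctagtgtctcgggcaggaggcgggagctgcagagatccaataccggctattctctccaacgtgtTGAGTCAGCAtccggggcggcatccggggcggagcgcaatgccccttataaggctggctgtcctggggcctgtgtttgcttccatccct

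The run TGAGTCAGCA lay at bases -74 to -65 from the start of Gstp1 (chromosome 19:4037977-4037986) and at -89 to -80 from that of Gstp2 (19:4042301-4042310). Its centre stood 11.5 bp from the peak midpoint in Gstp1 and 6.5 bp in Gstp2. Both strands of every RefSeq promoter window, 250 bases before to 50 after the start, were searched. The same run, chosen after it was seen in these 2 genes, occurred in 22 of 21263 windows of protein-coding genes (0.103%). It was found in 9 of the 2432 windows that a listed peak overlapped (0.37%), or 7 of 2430 (0.288%) without the 2 windows it was read from, and in 13 of the 18831 others (0.069%). Its parts taken singly did not both go the same way. TGCTGAC was in 7.11% of the windows with a peak and 3.94% of those without, and TGANTCA in 6.09% of those with a peak and 7.11% of those without. Over their 300-base windows the 2 promoters were identical at 243 of 282 aligned bases (86.2%), so the 2 windows are not independent examples. For scale, the same alignment of Gstp1 with the Gstk1 promoter gave 67.3%. How the mapping treated reads that fit both copies is not given in the sources used here, so tags may have been divided between them.

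**Figure D2:**
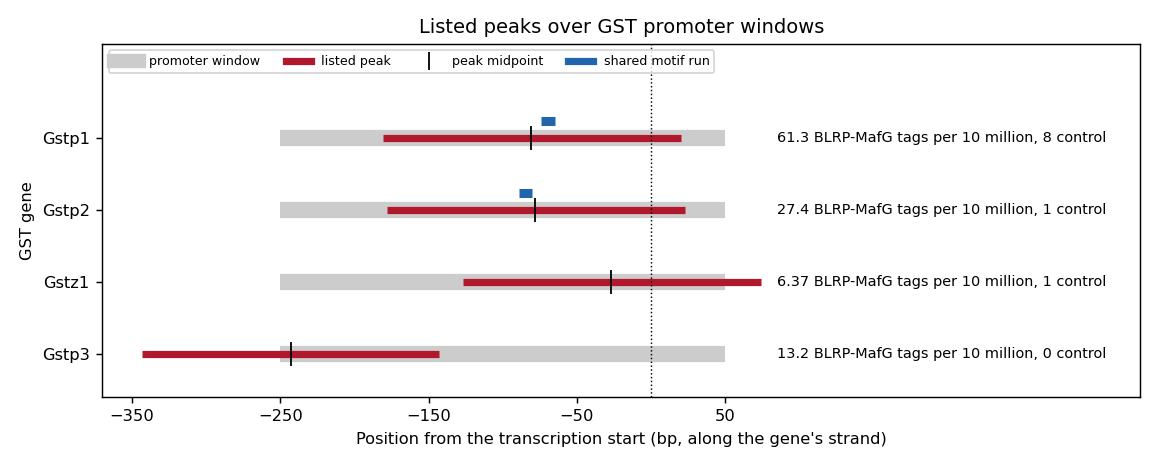
Position of listed peaks (red) over the RefSeq promoter windows (grey) of Gstp1, Gstp2, Gstz1 and Gstp3, in bp from the transcription start along the strand of each gene (x axis). The black tick is the peak midpoint and the blue bar the 10 bases of overlapping motif matches, which lie within a 34-base stretch identical in the Gstp1 and Gstp2 windows. The peaks of Gstp1 and Gstp2 span -181 to 20 and -178 to 23 and cover the run, while the Gstp3 peak has its midpoint at -243 and the Gstz1 peak at -27.

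The Gstp1 promoter peak was tall for a promoter. Among 2106 listed peaks that overlapped a promoter window of a protein-coding gene, the median height was 10.3 (quartiles 7.84 and 14.2), and 21, Gstp1 included, were as high as 61.3. The Gstp2 peak was matched or exceeded by 114 of the 2106. The 8 control tags at the Gstp1 promoter were also many for the list: as many or more were found at 271 of all 68763 peaks (0.394%). Low peaks could not hold 8 control tags and pass the 10-fold limit over control, so the share also counts peaks barred from it. The part of this background in the height was not tested. Of the 9 genes with a promoter window in the table, a listed peak overlapped the window of 3 (Gstp1, Gstp2 and Gstz1), against 12.9% of 17492 protein-coding genes. No promoter entry was found for Gstt2.

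Peaks also lay between and around the pi genes. A peak of 23 (16.9 to 30.6), with 47 BLRP-MafG tags and 2 control tags, stood 126 bp beyond the 3′ end of Gstp2 at 19:4040062-4040262. Another of 26.5 (19.9 to 34.5), with 54 BLRP-MafG tags and 2 control tags, stood 3977 bp upstream of Gstp2 at 19:4046098-4046298. Neither gene held a peak midpoint inside it. Another pi gene, Gstp3, which is not among the 10, lies farther upstream. It had peaks of 13.7 at 1977 bp from it and of 13.2 at 85 bp from it. The peak of 13.2, with 27 BLRP-MafG tags and 0 control tags, shared 108 bases with the Gstp3 promoter window. In the Gstp3 promoter window none of the 3 motifs was found.

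The ground between the pi peaks was itself raised. Dividing each height by the fold over the surrounding 10 kb in the authors' deposited table gives the level of the surroundings, in normalized tags per 200 bp. It was 4.26 around the Gstp1 promoter peak and 5.35 around that of Gstp2, against a median of 0.87 (quartiles 0.549 and 1.26) over all listed peaks. The median over the 11 pi peaks was 2.44, higher than around 97.4% of all listed peaks. Neighbouring peaks lie within the same 10 kb and add to this level. In the authors' deposited table the fold over the surroundings was 14.38 at the Gstp1 promoter and 5.12 at the Gstp2 promoter, against a median of 16.2 over all peaks. The Gstp2 peak was thus close to the 4-fold limit of the caller. Some peaks of other classes were closer still, with a lowest fold of 4 at the theta genes and 4.51 at Mgst1.

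Mgst1, whose membrane-bound product conjugates glutathione and reduces lipid hydroperoxides, held the tallest peak to which any of the 10 genes was nearest. It lay inside the gene (chromosome 6:138140527-138156755, plus strand) at 6:138145364-138145564, 3877 bp downstream of the second of 2 annotated starts. There were 247 BLRP-MafG tags and 2 control tags, a height of 121 (106 to 137) and a ratio to control of 104 (28.5 to 865). Of all listed peaks, 2.71% were as high. A second peak of 19.1 (13.6 to 26.1) stood nearer that start, 1530 bp downstream of it at 6:138143017-138143217, with 39 BLRP-MafG tags and 3 control tags. Its surroundings were at 4.24, near the 4.26 around the Gstp1 promoter peak, and its fold over them was 4.51. The peak of 121 lies within the same 10 kb and adds to this level. The last, of 6.86 (3.75 to 11.5), lay 47962 bp beyond the gene, which has no other protein-coding gene within 50 kb. No listed peak overlapped either Mgst1 promoter window. The window of the first start does hold an ARE core, TGACNNNGC, on the opposite strand as GCACGGTCA at bases -56 to -48. It was the only match to that core in the 13 promoter windows of the 9 genes, and 13% of protein-coding windows hold one.

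The theta genes lay among many low peaks. They encode enzymes that act on small halogenated compounds and organic hydroperoxides, and the cluster is on chromosome 10. Gstt1 (10:75783813-75798584) held a peak of 11.8 (7.54 to 17.5) at 10:75789831-75790031, with 24 BLRP-MafG tags and 1 control tag, and had one of 10.3 (6.37 to 15.7) 411 bp beyond its 3′ end. Gstt2 (10:75831842-75837419) held a peak of 14.2 (9.52 to 20.4) at 10:75834471-75834671, with 29 BLRP-MafG tags and 2 control tags. On one side of Gstt2 came 3 more, of 10.3, 9.31 and 7.35, at 1630, 3603 and 4017 bp from it, each with 0 control tags. The 9 theta peaks thus included 8 between 5.88 and 14.2. The interval of the lowest (3.04 to 10.3) and that of the highest of these 8 (9.52 to 20.4) overlap only at their ends.

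Gstt3 (10:75774117-75781422) was the theta gene with no peak to which it was nearest, by distance to a gene end. The peak closest to it, 1980 bp upstream, was the one of 10.3 beyond the 3′ end of Gstt1. That peak lay 14329 bp from the Gstt1 start, so by distance to a start it was closer to Gstt3 than to Gstt1. In the Gstt3 window lay the tallest of all 37 peaks, with 320 BLRP-MafG tags and 2 control tags. Its height was 157 (140 to 175) and its ratio 135 (37.1 to 1119). That peak sits inside Cabin1, a calcineurin inhibitor gene, at 10:75725551-75725751. It is 48466 bp from Gstt3 and 58162 bp from Gstt1, so the 50 kb limit alone gives it to one and not the other. The levels of the surroundings at the 9 theta peaks had a median of 1.6, higher than around 87.6% of listed peaks.

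The 50 kb limit also passed close to peaks of Gstp2 and Gstt2. Gstp2 had one of 10.8 at 49393 bp, just inside the limit, and one of 9.31 at 51658 bp, just outside. For Gstt2 the peak just outside, at 51109 bp, had a height of 8.82.

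Between them the omega genes had 8 peaks, and only the second gene held any. Gsto1 and Gsto2, whose products reduce dehydroascorbate and methylated arsenic, lie 647 bp apart on the plus strand of chromosome 19 and have the same 8 peaks in their windows. Gsto2 (19:47865438-47886308) held one of 24.5 (18.2 to 32.3) at 19:47872649-47872849, with 50 BLRP-MafG tags and 2 control tags. A second inside it, of 13.2 (8.72 to 19.3), stood at 19:47874277-47874477 with 27 BLRP-MafG tags and 2 control tags. Gsto1 (19:47854973-47864790) held none, and its closest was the first Gsto2 peak, 7959 bp beyond its 3′ end. Upstream of Gsto1 stood the tallest of the locus, of 40.7 (32.4 to 50.4), with 83 BLRP-MafG tags and 5 control tags at 19:47842447-47842647. It is 12426 bp from Gsto1 and lies outside the nearer cilia gene Cfap43, 5093 bp away. Inside Cfap43 stood peaks of 27.9, 21.1 and 9.31. The control held at least 1 tag in all 8 peaks, and the ratio at the tallest was 14 (5.77 to 44.3).

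Gstz1 had peaks at its start, but low ones. It encodes maleylacetoacetate isomerase, an enzyme of tyrosine breakdown, and overlaps the O-mannosyltransferase gene Pomt2 at that end. The peak over its promoter window, at 12:87147038-87147238, had 13 BLRP-MafG tags and 1 control tag, a height of 6.37 (3.39 to 10.9), and 92.1% of listed peaks were as high or higher. Its midpoint lay inside Pomt2 and 23 bp upstream of Gstz1, so Pomt2 was the nearest gene. The next, 442 bp downstream of the start of Gstz1 (12:87147161-87164723) and inside both genes, had 17 BLRP-MafG tags and 0 control tags. Its height was 8.33 (4.85 to 13.3). Taking 3 control tags as the floor, its ratio to control was 4.78, and the exact lower limit of the ratio is 3.48. Taller peaks in the window lay inside other genes. One of 81.3 (69.4 to 94.7), with 166 BLRP-MafG tags and 4 control tags, stood in Pomt2 14264 bp upstream of Gstz1. One of 46.1 (37.2 to 56.4), with 94 BLRP-MafG tags and 0 control tags, stood in Tmed8, 19112 bp downstream.

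Gstk1 had the fewest peaks. The gene (chromosome 6:42245935-42250441) encodes the kappa enzyme. A peak of 12.7 (8.32 to 18.7) lay 4125 bp upstream at 6:42241710-42241910, with 26 BLRP-MafG tags and 0 control tags. By the same floor its ratio to control was 7.31 (exact lower limit 5.53). The other, of 9.31 (5.61 to 14.5), lay 16217 bp upstream and nearer to a taste receptor gene, Tas2r144. Its surroundings were at 0.39 and those of the nearer peak at 0.807, both below the 0.87 median.

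**Figure D3:**
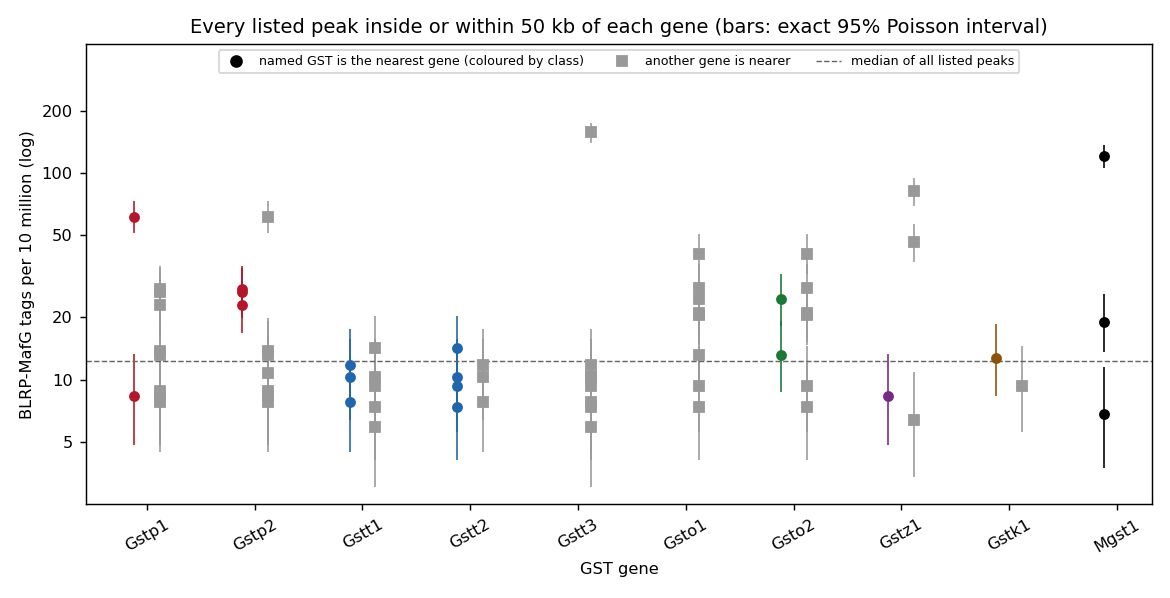
Height of every listed peak inside or within 50 kb of each gene (y axis, BLRP-MafG tags per 10000000, log scale), with exact 95% Poisson intervals as bars. Coloured circles are peaks to which the gene is nearest and grey squares peaks nearer to another gene. The dashed line is the 12.3 median of all listed peaks. Mgst1 at 121 and Gstp1 at 61.3 have the highest circles, and Gstt3 and Gsto1 have none.

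Ranked by the highest peak to which each gene was nearest, Mgst1 (121) and Gstp1 (61.3) stood first and second, and their intervals overlapped neither each other nor the next. The place of Gstp1 rests on its promoter peak, which a fold of at least 20 over control in the authors' deposited table would remove. The only other peak to which Gstp1 was the nearest gene had a height of 8.33. The peak of 23, nearest to Gstp2, lay 2250 bp upstream of Gstp1 and had a deposited fold of 19.82 over control. Below Mgst1 and Gstp1 came Gstp2 (27.4), Gsto2 (24.5), Gstt2 (14.2), Gstk1 (12.7), Gstt1 (11.8) and Gstz1 (8.33). In this lower group the interval of each gene overlapped that of the next, so neighbouring ranks are not separated by their counting error.

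Control tags at the 37 peaks were few, as the filter of the list requires. The control held 0 tags in 13 of them (35.1%), against 44.4% of all listed peaks, and 1 or 2 tags in 19. Of the 37, 23 (62.2%) reached in the authors' deposited table a fold of 20 over control, against 64.3% of all peaks.

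**Figure D4:**
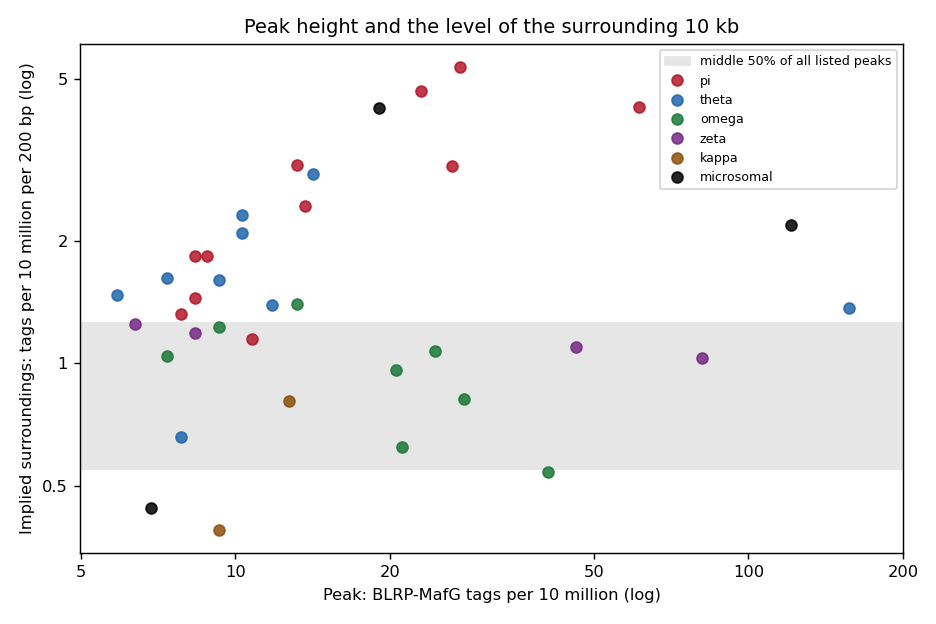
Height of each of the 37 peaks (x axis, BLRP-MafG tags per 10000000, log scale) against the level of its surrounding 10 kb (y axis, normalized tags per 200 bp, log scale, from the authors' deposited fold over the surroundings). Colours give the GST class near which a peak lies, and the grey band is the middle 50% of all listed peaks, from 0.549 to 1.26. Pi peaks reach 5.35, omega peaks stay between 0.54 and 1.4, and the Mgst1 peaks of 121 and 19.1 stand at 2.19 and 4.24.

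The other GST classes also had a peak near every gene. Within 10 kb this held for 4 of 4 alpha-class genes and 7 of 7 mu-class genes, as for all 10 genes here. It also held for 74.5% of all protein-coding genes. The median of the highest peak within 10 kb was 19.4 in the 10 genes, 23.3 in the alpha class, 32.3 in the mu class and 13.7 over all protein-coding genes. That last value counts genes without a peak as 0, and over the 16303 protein-coding genes that had a peak within 10 kb the median was 21.6. The 19.4 of the 10 genes, all of which had one, was therefore not above it. The highest peaks of these families were those of Gsta3 (184, 166 to 203), Gstm4 (141, 125 to 158) and Mgst3 (130, 115 to 146). Mgst3 encodes a membrane-bound relative of Mgst1, and its peak interval overlapped that of Mgst1. Promoter windows were overlapped in 3 of 7 mu-class genes and in 0 of the 3 alpha-class genes with an entry. Of the genes described here 3 of 9 had one overlapped, and of all protein-coding genes with an entry 12.9%. No difference between the classes was tested.

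**Figure D5:**
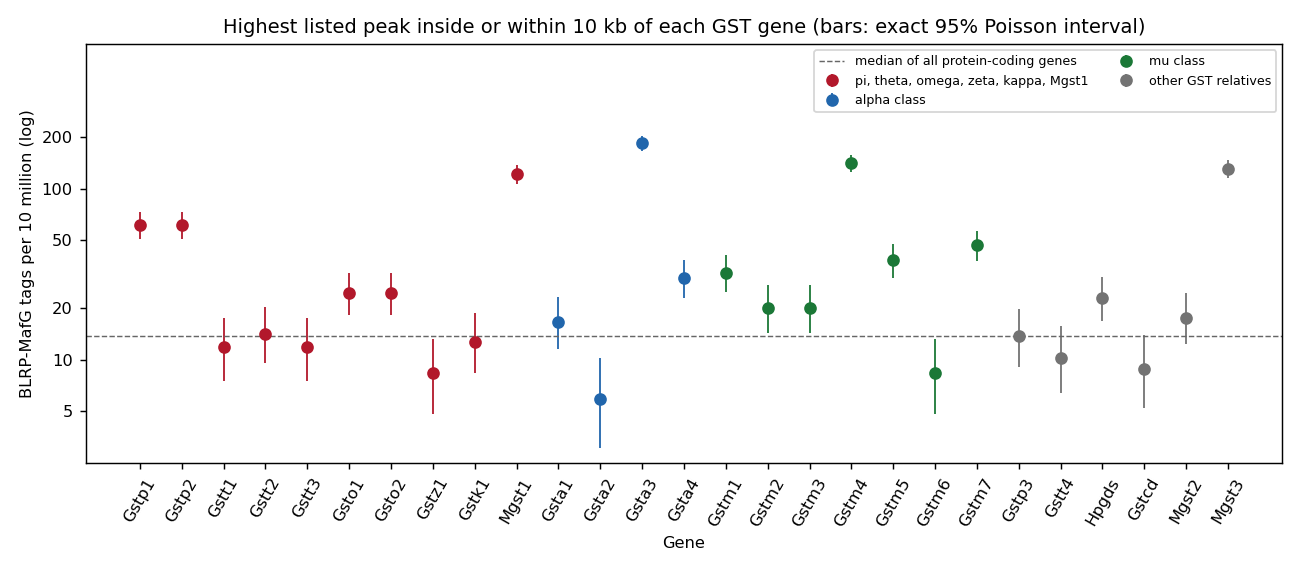
Highest listed peak inside or within 10 kb of each GST gene (y axis, BLRP-MafG tags per 10000000, log scale), with exact 95% Poisson intervals, by family. The dashed line is the 13.7 median of all protein-coding genes, with genes that had no peak counted as 0. Mgst1 at 121 stands with Gsta3 at 184, Gstm4 at 141 and Mgst3 at 130 above all other genes plotted, and neighbouring genes can share a peak.

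Genes that supply glutathione or process its conjugates all had a peak within 10 kb, as did 74.5% of all protein-coding genes. All 4 glutathione synthesis and reduction genes (Gclc, Gclm, Gss, Gsr) had a peak within 10 kb, with a median highest peak of 38.5. All 9 genes of the mercapturate pathway and of conjugate export had one, with a median of 36.8. So did all 4 tyrosine breakdown genes other than Gstz1 (median 26.7) and all 4 glutathione turnover genes (median 13.2). Over all protein-coding genes with a peak within 10 kb the median was 21.6. Within 1 kb the counts were 4 of 4 synthesis, 7 of 9 mercapturate and export, 4 of 4 tyrosine and 1 of 4 turnover genes. Of the 10 genes described here 7 had one, and of all protein-coding genes 56.8%. A peak midpoint lay inside 4 of 4 synthesis, 7 of 9 mercapturate and export, 3 of 4 tyrosine and 0 of 4 turnover genes. The share over all protein-coding genes was 50.5%. The lists are short, and no difference between them was tested.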

How the data were processed

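ChIP-seq was carried out on mouse liver in 2 BLRP-MafG and 2 BLRP control libraries. The submitters' processing notes name Bowtie2, HOMER and mm10, without versions. HOMER findPeaks, per the file headers, called 200 bp peaks on 1 BLRP-MafG tag collection against 1 control collection. The headers do not say which libraries each holds.

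The deposited signal is the normalized tag count, scaled by the authors to 10000000 tags, beside unscaled control tags, in which 0.5 stands for 0. The deposited fold values are linear ratios to control and to the surrounding 10 kb. The deposited p-values (Poisson) and the deposited peak score were not used in results. Undoing the scaling to 10000000 returned whole tags at 100% of peaks (tolerance 0.11). From them came exact 95% Poisson intervals for heights and, conditional on the summed tags, exact binomial intervals for ratios. Scripts (Python 3.11.15, SciPy 1.17.1, Biopython 1.88) were tested on simulated data.

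Gene limits and promoter sequences came from RefSeq GRCm38.p6. Distances run from the peak midpoint to the nearer gene end. A promoter counted as overlapped from 1 shared base. Exons and introns were not separated. Signal below the caller's limits is not listed. The genes and lists were chosen with earlier results of these data known. All 10 genes are named, and of other lists the 3 highest within 10 kb. No replicate test was possible.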

Additional observations from a re-analysis of the deposited data

How the results depend on the processing

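Counts of peaks followed the window. The 37 distinct peaks became 20 within 10 kb, 12 within 1 kb and 60 within 100 kb, 23 with a deposited fold of at least 20 over control, and 19 where the gene had to be the nearest protein-coding gene. The median highest peak, 51 within 50 kb, became 19.4, 13 and 71.3 over the same windows, 27.6 with the stricter fold and 13.4 for the nearest gene. Genes without a peak count as 0 there, and over the 7 and 8 genes that had one the medians were 24.5 within 1 kb and 19.4 for the nearest gene. The number of genes with a peak stayed at 10, apart from 7 within 1 kb and 8 for the nearest gene. Measuring from the nearest base of the peak changed none of these values. The stricter fold removed the Gstp1 promoter peak, so the highest near Gstp1 and Gstp2 became 27.4, the Gstp2 promoter peak, in place of 61.3. It also gave 27.9 in place of 40.7 near Gsto1 and Gsto2, and 11.8 in place of 14.2 near Gstt1 and Gstt2. Counting 0 control tags as 0.5 gave 43.9 in place of 7.31 at Gstk1, and a floor of 3 control tags for every peak gave 90 in place of 135 at the Cabin1 peak near Gstt3 and 69.5 in place of 104 at Mgst1. All 10 ratios stayed inside their exact intervals under both. This is little of a check, as intervals at few control tags are wide and that of Gstk1 has no upper limit. With the 10 kb window another peak was the highest near Gstt1, Gstt3, Gsto1, Gsto2 and Gstz1. The ratio was 20.2 in place of 135 near Gstt3 and 4.78 in place of 35 near Gstz1, outside the former intervals. It stayed inside them near Gstt1 (20.2 in place of 12.2) and near Gsto1 and Gsto2 (21.1 in place of 14). Fewer tags limit low peaks most: the ratio at a peak with 1 control tag is known only within wide bounds. No paired analysis was possible because values per library are absent from the peak list; for the same reason no library was left out in turn.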

Other observations

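Genes that are not among the 10 described had tall peaks in the same neighbourhoods or pathways. Ggct, the gene of gamma-glutamylcyclotransferase, was the nearest protein-coding gene to a peak of 480.7 that lay 21440 bp from it, higher than the highest near 99.6% of protein-coding genes, while its highest within 10 kb was 13.2. Lap3, a leucine aminopeptidase gene of conjugate processing, held one of 88.7 (76.2 to 103) with 0 control tags. With 3 control tags as the floor its ratio to control was 50.9, and the exact lower limit of the ratio is 41. These genes were picked out after their values were seen.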
